A study of Mus musculus with 12 samples.

Results

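The integrins and laminins of mouse mammary tumors were examined as a family of 38 protein-coding genes, 27 encoding integrin subunits and 11 encoding laminin chains. They were taken from the 54532 genes of the count table by a rule on their symbols that uses no measured value. The family itself was chosen with earlier results of these data known. Of its members 36 passed the filter on low counts that left 15504 genes for testing. Itgad and Lamc3 did not pass it. RNA-seq had been performed on 12 mammary tumors of MMTV-neu mice, a model of HER2-positive breast cancer in which the MMTV promoter drives the neu (Erbb2) oncogene in mammary epithelium. All mice carried this transgene, and they received powdered control chow with the ethanol and oil vehicle (4 tumors), the same chow with MSU-42011 at 100 mg per kg of diet (4 tumors) or with bexarotene at 100 mg per kg of diet (4 tumors) for 10 days. MSU-42011 and bexarotene are both agonists of the retinoid X receptor (RXR), a nuclear receptor that controls transcription alone or with a partner receptor. Neither the strain background nor the age of the mice was given by the sample labels, which also do not say whether each tumor came from a separate mouse, so that p-values measure the spread between these tumors.

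Integrins are receptors of the cell surface made of 1 alpha and 1 beta subunit, and they tie the cytoskeleton to the extracellular matrix or to other cells. Which ligand is bound depends mainly on the alpha subunit: some bind collagens, some laminins, some the RGD sequence of fibronectin, vitronectin or nephronectin, and some are restricted to leukocytes and bind cell surface ligands. Laminins are trimers of an alpha, a beta and a gamma chain that form the scaffold of basement membranes, the sheets on which mammary epithelium rests.

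Total counts per tumor ran from 16583413 to 25925027 (median 19342536), so that 3 counts, taken as the floor, equalled 0.116 to 0.181 CPM, the read count scaled to the library total. This floor takes in counting error alone. Bexarotene replicate 1 stood apart from the other tumors, at −115 on the first principal component against −16.2 to 34.2, and results that rest on it are given with and without it. The luminal epithelial markers summed to 5096 to 6521 normalized CPM in control tumors, 4784 to 5478 with MSU-42011 and 3138 to 6064 with bexarotene, the lowest in bexarotene replicate 1. The 10 fibroblast markers summed to 103 to 446 in control tumors and 172 to 492 with MSU-42011, and to 10719 in bexarotene replicate 1 against at most 841 in the other bexarotene tumors, with 10 of 10 at their highest in that tumor. The other marker sums, apart from those of luminal and T cells, were also highest there. They were 257 for skeletal muscle (control at most 142, MSU-42011 at most 8.83), 91.7 for adipocytes (at most 35.5 and 24.4) and 564 for endothelial cells (at most 210 and 268). Their part in the results was not tested. Of 8 basal and myoepithelial markers 5 passed the filter, and Krt5, Krt14, Krt17 and Cnn1 were at 0 in at least 1 tumor. In bulk tissue, fewer cells of a type and less RNA per cell cannot be told apart.

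Mean levels in control tumors ran from 0.0390 FPKM for Lamc3 to 307 FPKM for Itgb5. Levels are compared between genes by the FPKM that the authors deposited, which divide the read count by the library total and by a gene length. The beta subunits Itgb5, which pairs with alpha-v, and Itgb1, the common partner of collagen, laminin and fibronectin receptors, stood highest, at 307 ± 64.4 and 262 ± 41.9 FPKM (SD, n = 4). The laminin chain Lamb2 followed at 203 ± 6.87 FPKM, and the laminin receptor subunit Itga6 at 112 ± 20.7 FPKM. Next came Lamb3 with 91.6 ± 31.7 FPKM, Itga8, the alpha subunit of the nephronectin receptor, with 87.2 ± 25.9 FPKM, Lama5 with 67.3 ± 11.5 FPKM and Itgb4, the partner of Itga6 in hemidesmosomes, with 54.1 ± 8.38 FPKM. The gene for nephronectin, Npnt, the main ligand of the Itga8 receptor, was itself at 344 to 527 FPKM in control tumors. At the low end were the leukocyte subunits Itgal (1.03 ± 0.450 FPKM) and Itgae (0.481 ± 0.177 FPKM), the fibroblast collagen receptor subunit Itga11 (0.254 ± 0.162 FPKM) and Lama3 (0.213 ± 0.0770 FPKM).

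Most neighbours in this order could not be separated: of 37 adjacent pairs, the 4 control tumors overlapped in 35. Lamb2 and Itga6, and Itga3 and Lamb1, were the exceptions. The order also depends on the length used, since the length that the FPKM imply was 0.194 to 0.861 times the length listed for the gene in the same table. With CPM per listed kilobase in place of FPKM, Itgb1 stood first and Itgb5 second, Itgb4 moved from rank 8 to rank 4 and Itgb3 from rank 13 to rank 8, while Lamb2 kept rank 3 and Lamc3 rank 38.

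**Figure D1:**
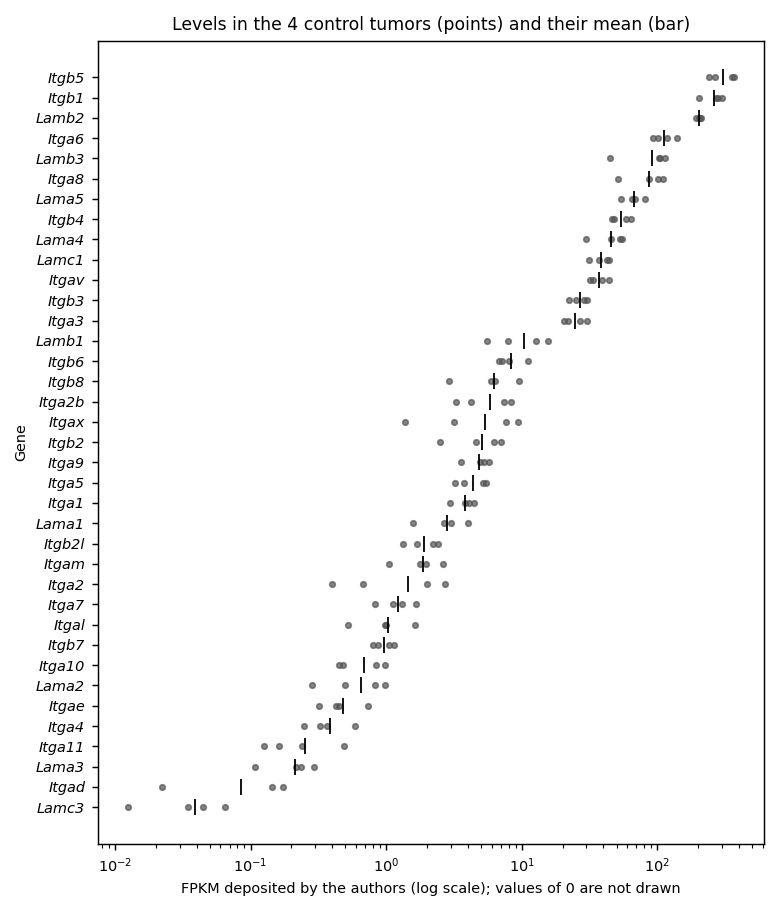
FPKM of 37 of the 38 members in the 4 control tumors on a log scale (points, tumors; bars, means), ordered by the mean. Itgb5, Itgb1 and Lamb2 have means of 307, 262 and 203 FPKM, and neighbouring genes overlap almost everywhere.

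The spread between tumors differed widely among members, here on the scale of normalized CPM, which compares tumors for 1 gene. Lamb2 varied least, with a coefficient of variation of 7.0% over all 12 tumors, followed by Itgb4 (13.9%), Itgb5 (14.3%) and Itga3 (15.8%). Itga11 (257%), Lama2 (169%), Itgam (108%) and Itgb2 (104%) varied most, and in these 4 genes the highest tumor was bexarotene replicate 1. That tumor was the highest of the 12 for 14 of 36 members (19.1% of all genes tested), control replicate 2 for 9 (9.65% of all genes) and MSU-42011 replicate 3 for 7 (10.5% of all genes).

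**Figure D2:**
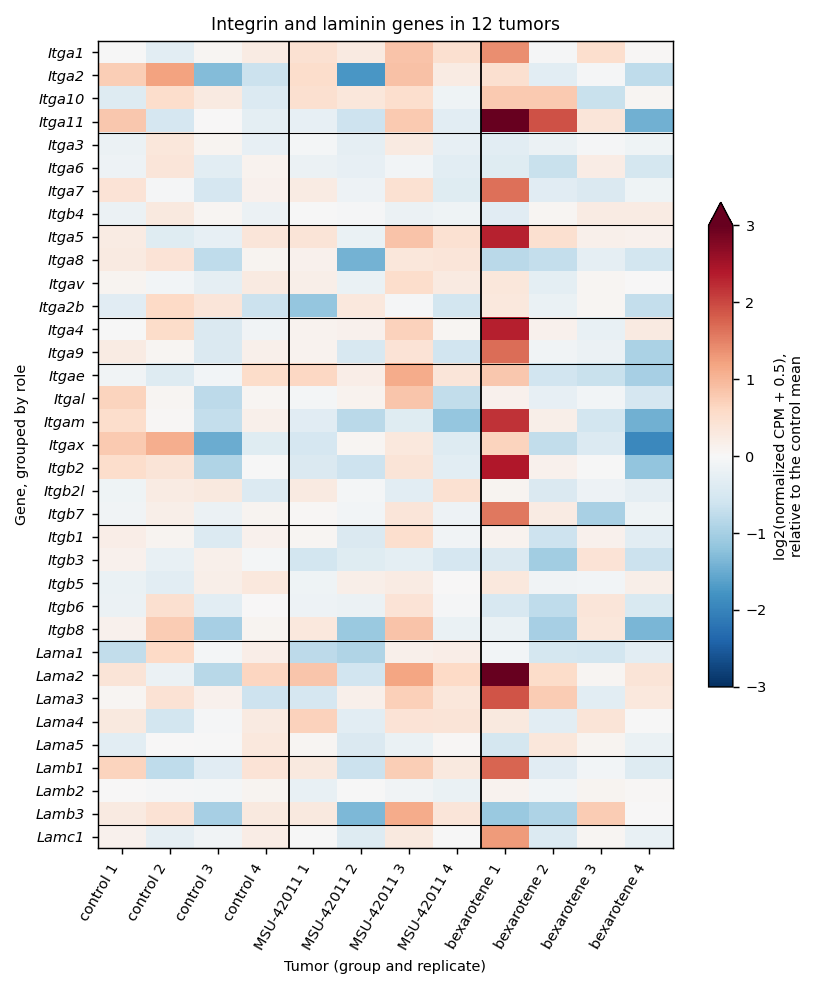
Log2 of normalized CPM plus 0.5 of 35 of the 36 tested members in each of the 12 tumors, as the difference from the control mean on the same scale; rows are grouped by role, and the colour scale ends at 3 on either side. The strongest reds lie in the column of bexarotene replicate 1, in Itga11, Lama2, Itga5, Itga4, Itgam and Itgb2, and the columns of the MSU-42011 tumors show no red as strong.

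No member passed the test in any comparison. Across the 3 groups, edgeR's quasi-likelihood test with Benjamini-Hochberg adjustment over 15504 genes called 0 of 36 members, and it called 0% of all genes tested. At an unadjusted p under 0.05 the test among the 3 groups held 2 of 36 members in edgeR (Itga11 and Lama2), where it held 4.24% of all genes, and 2 of 38 in DESeq2 (Itga11 and Itga5), where it held 3.49%. The 3 pairwise tests likewise called 0 members and 0% of all genes. DESeq2, the tool the study used, also called 0 members in each test as run here. Its calls took 0.0167% of 29907 genes among the 3 groups and 0.00334% between MSU-42011 and control tumors. They took 0.0201% between bexarotene and control tumors and 0.0836% between the compounds. The paper, in its own DESeq2 comparison of the 3 groups, placed Itga11 among its most significant genes at an adjusted p under 0.05. The reason for this difference was not tested.

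In MSU-42011-treated tumors the integrins and laminins were evenly split in direction. Of 36 members 18 had a higher and 18 a lower fitted level, and the members' median difference was 0.00055 on the log2 scale (all genes tested, 0.0016). With MSU-42011 replicate 3 left out this median was −0.15, and with replicate 2 of that group left out it was 0.13. No member had an unadjusted p under 0.05 in edgeR (1.14% of all genes were higher and 0.851% lower at this p) or in DESeq2 (0.96% and 0.615%). For 16 of 36 members the 95% interval of the log2 fold change lay within 1 unit of 0, which corresponds to a fold change of less than 2, and for the others a change of that size was not excluded by its interval.

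The groups did not overlap for 2 members, Itga1 and Itgb3, among the 5 with the smallest p. Itga1 (ENSMUSG00000042284, chr13:114953096-115101964, minus strand, GRCm38 coordinates as in the table) encodes the alpha subunit of a receptor for collagen IV and other collagens. Its normalized CPM were 16.2, 13.0, 17.0 and 19.4 in the control tumors, 22.5, 19.6, 30.0 and 22.9 with MSU-42011 and 43.5, 15.7, 23.3 and 16.6 with bexarotene. All 4 MSU-42011 tumors were above all 4 control tumors (1.16% of all genes tested were higher without overlap), and bexarotene replicate 1 was the highest tumor. The mean was 16.4 ± 2.63 CPM in control and 23.8 ± 4.41 CPM in MSU-42011 tumors (SD, n = 4 per group), a log2 difference of 0.53 with a standard error of 0.29 and a 95% interval of −0.096 to 1.17, which did not pass the test (edgeR adjusted p = 0.9999). The exact two-sided permutation test of the 4 against 4 tumors gave p = 0.0286, the smallest it can give. Groups without overlap always have this p, which was 0.0714 when adjusted over the 5 members named in this comparison. Those 5 were picked by their edgeR p in the same tumors, so 0.0714 does not cover all 36 tested members and is too low. The difference lay between 0.40 and 0.63 with any 1 tumor left out. Without bexarotene replicate 1, which enters the shared estimate of spread, the unadjusted edgeR p was 0.0123 in place of 0.0898, and the adjusted p stayed at 0.9998.

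Itgb3 (ENSMUSG00000020689, chr11:104608000-104670476, plus strand) encodes the beta subunit that pairs with alpha-v on endothelial, stromal and tumor cells and with the Itga2b product on platelets. Its normalized CPM were 150.0, 119, 153 and 133 in the control tumors, 94.8, 107, 112 and 96.6 with MSU-42011 and 102, 66.3, 182 and 88.3 with bexarotene. All 4 MSU-42011 tumors were below all 4 control tumors (0.806% of all genes were lower without overlap), while the bexarotene tumors ranged on both sides of them. In deposited FPKM, which carry no TMM factor, the 2 groups overlapped slightly, with a lowest control tumor at 22.4 and a highest MSU-42011 tumor at 23.0 FPKM. The log2 difference was −0.44 (standard error 0.24, 95% interval −0.96 to 0.090, edgeR adjusted p = 0.9999), from 139 ± 15.9 to 103 ± 8.38 CPM (SD, n = 4 per group). The exact permutation p was again 0.0286 (0.0714 adjusted over the 5, with the same limit), and leaving out any 1 tumor gave −0.50 to −0.38. The 5 markers of platelets and megakaryocytes, of which 1 passed the filter on low counts and 2 (Gp9 and Gp6) were at 0 in at least 1 tumor, summed to at most 2.97 CPM in control tumors and 0.935 to 1.72 CPM with MSU-42011, and their part in the difference was not tested. Itga2b was at 3.79 to 9.66 CPM in control and 2.47 to 7.76 CPM in MSU-42011 tumors.

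The other 3 members of these 5 overlapped between groups. Lamb2, the beta chain of vascular and synaptic basement membranes, was at 247, 239.7, 237 and 259 in the control tumors, 212, 244, 228 and 215 with MSU-42011 and 263, 233, 261 and 251 with bexarotene. Of its MSU-42011 tumors 3 of 4 lay below the control range and the other within it, and the log2 difference was −0.13 (95% interval −0.32 to 0.060, edgeR adjusted p = 0.9999). Itgae, the alpha subunit of tissue-resident T cells and some dendritic cells, stood at 1.66, 1.28, 1.71 and 2.93 in the control tumors, 3.08, 2.18, 4.55 and 2.47 with MSU-42011 and 3.58, 1.05, 0.969 and 0.674 with bexarotene, on 11 to 97 reads per tumor. Its difference with MSU-42011 was 0.69 (95% interval −0.39 to 1.78), and 8 T cell markers summed to 5.93 to 14.2 CPM in control tumors, 7.51 to 14.9 with MSU-42011 and 4.78 to 11.6 with bexarotene. Lama4, an alpha chain of vessel and mesenchymal basement membranes, was at 148, 81.7, 118 and 145 in the control tumors, 195, 96.4, 159 and 156 with MSU-42011 and 147, 96.5, 156 and 118 with bexarotene. The MSU-42011 tumors reached higher than the control tumors but overlapped them, and the log2 difference was 0.30 (95% interval −0.22 to 0.81). The 8 endothelial markers summed to 105 to 210.2 CPM in control tumors and 139 to 268 with MSU-42011, and their part in this difference was not tested.

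In bexarotene-treated tumors the collagen receptor subunit Itga11, the stromal laminin chain Lama2, Itga4 and the fibronectin receptor subunit Itga5 had the highest fold changes, and these were much smaller without replicate 1. Of 36 members 19 were higher and 17 lower than in the control group, and the median difference was 0.034 on the log2 scale (all genes, 0.030). At an unadjusted p under 0.05 edgeR held 3 members, Itga11, Lama2 and Itga5, all higher (4.48% of all genes were higher and 1.96% lower at this p), and DESeq2 held 2, both higher (3.31% and 1.33% of all genes). No member separated the groups, against 1.14% of all genes higher and 0.89% lower without overlap. Without bexarotene replicate 1 the median was −0.28 (all genes, 0.006), 12 of 36 members were higher, and 2 had an unadjusted p under 0.05, both lower, which were the leukocyte subunits Itgae and Itgax (1.6% of all genes were higher and 1.75% lower at this p).

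Itga11 (ENSMUSG00000032243, chr9:62677826-62783982, plus strand) encodes a collagen receptor subunit of fibroblasts. Its normalized CPM were 2.14, 0.568, 1.02 and 0.733 in the control tumors, 0.770, 0.485, 2.11 and 0.712 with MSU-42011 and 48.2, 5.20, 1.45 and 0.0613 with bexarotene, and 1 read was counted in bexarotene replicate 4. Replicate 1 of the bexarotene group was far above the other 11 tumors, replicate 2 was the next, and the remaining bexarotene tumors were within or below the range of the other groups. The log2 fold change against control was 3.64 (standard error 1.27, edgeR adjusted p = 0.762) with all tumors and 1.03 without replicate 1. With all tumors the exact permutation p was 0.4, or 0.429 adjusted over the 5 members named in this comparison. These 5 were also picked by their edgeR p, so 0.429 does not cover all 36 tested members. The fibroblast marker sum given above moved with Itga11, and its part in the result was not tested.

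Lama2, the alpha chain of muscle and stromal basement membranes, was likewise highest in that tumor, at 3.03, 1.89, 1.02 and 3.71 in the control tumors, 4.29, 1.33, 5.69 and 3.60 with MSU-42011 and 37.3, 3.48, 2.32 and 3.07 with bexarotene. Against control it differed by 2.26 on the log2 scale (standard error 0.87, edgeR adjusted p = 0.762) and 0.29 without replicate 1. Itga5, the alpha subunit of the classical fibronectin receptor, stood at 12.8, 8.24, 9.03 and 13.9 in the control tumors, 14.1, 9.21, 19.9 and 15.0 with MSU-42011 and 55.1, 15.1, 11.9 and 11.8 with bexarotene. Its mean with bexarotene was 23.5 ± 21.2 CPM (SD, n = 4) and 12.9 ± 1.89 CPM (SD, n = 3) without replicate 1, against 11.0 ± 2.77 in control tumors (SD, n = 4), and the log2 fold change went from 1.10 (edgeR adjusted p = 0.762) to 0.24. Itga1 was 0.60 higher on the log2 scale with bexarotene (edgeR adjusted p = 0.800) and 0.18 higher without replicate 1. Itga4, a subunit of leukocyte receptors for Vcam1 and fibronectin, had a log2 fold change of 1.22 (edgeR adjusted p = 0.801) on 17 to 243 reads per tumor, and 0.034 without replicate 1. Its normalized CPM were 1.36, 2.27, 0.909 and 1.25 in the control tumors, 1.54, 1.58, 2.55 and 1.47 with MSU-42011 and 8.97, 1.57, 1.11 and 1.78 with bexarotene. In each of these 5 genes replicate 1 was the highest bexarotene tumor.

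**Figure D3:**
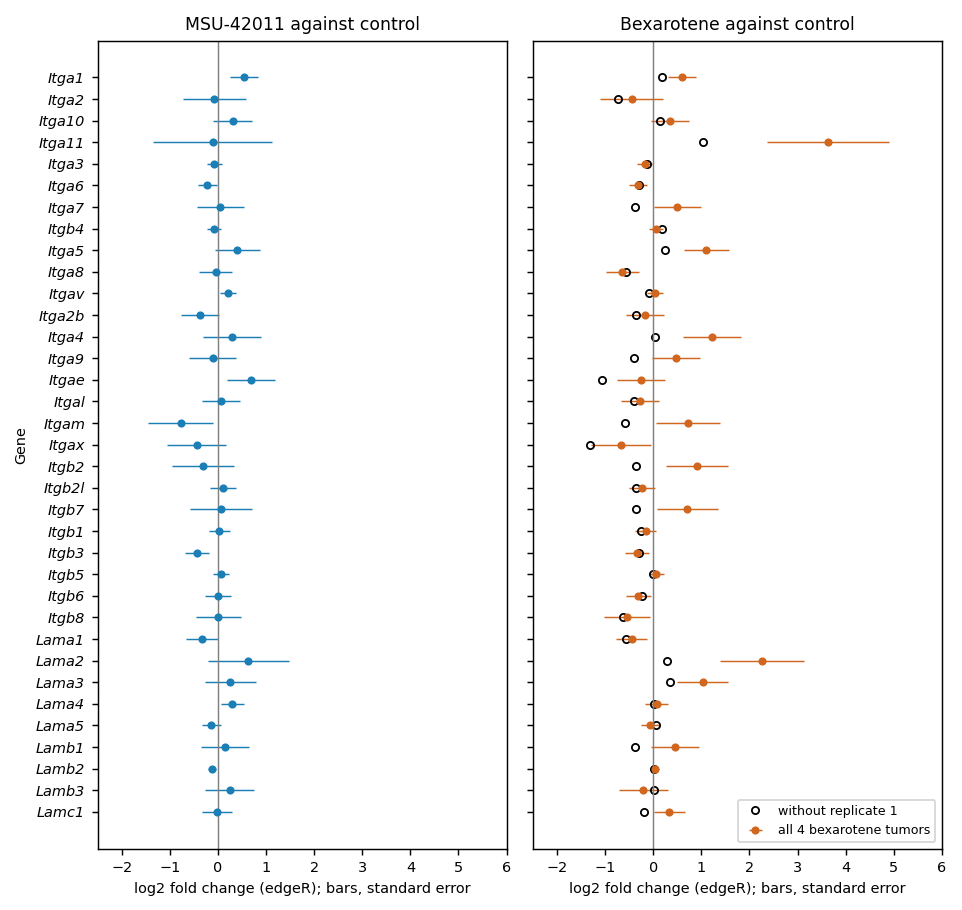
Log2 fold change of 35 of the 36 tested members against control for MSU-42011 (left) and bexarotene (right), with bars for the standard error; open circles give the bexarotene values without replicate 1. Itga11 moves from 3.64 to 1.03 and Lama2 from 2.26 to 0.29, while Itgb5, Lamb2 and Lama5 stay near 0 throughout.

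The 250 bases before the RefSeq start of Itga11 and Itga1 are shown here because these genes had, in turn, the largest fold change with bexarotene and the smallest p with MSU-42011 among the members, and those before the first of 2 listed starts of Lamb3 because that gene stood far above its partner Lama3 in level. They are read 5′ to 3′ on the strand of the gene, from GRCm38.p6.
Itga11 (chr9:62677605-62677854, plus strand): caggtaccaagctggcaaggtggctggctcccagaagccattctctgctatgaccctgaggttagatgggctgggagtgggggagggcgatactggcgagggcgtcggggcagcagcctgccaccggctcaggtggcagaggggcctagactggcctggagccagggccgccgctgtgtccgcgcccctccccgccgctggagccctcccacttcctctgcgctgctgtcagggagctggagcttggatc
Itga1 (chr13:115101965-115102214, minus strand): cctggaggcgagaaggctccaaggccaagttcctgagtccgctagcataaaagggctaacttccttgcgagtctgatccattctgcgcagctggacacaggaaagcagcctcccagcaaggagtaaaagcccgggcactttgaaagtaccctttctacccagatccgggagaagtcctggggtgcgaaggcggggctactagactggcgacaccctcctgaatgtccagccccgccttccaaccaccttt
Lamb3 (chr1:193301744-193301993, plus strand): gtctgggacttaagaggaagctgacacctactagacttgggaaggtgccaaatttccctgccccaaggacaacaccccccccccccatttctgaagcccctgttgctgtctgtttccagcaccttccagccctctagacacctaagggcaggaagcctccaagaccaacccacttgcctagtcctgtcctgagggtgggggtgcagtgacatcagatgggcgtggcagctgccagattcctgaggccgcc
Promoter windows of 300 bases, of which 50 lie after the start, were held for 24 of 38 members (27 windows). They were searched on both strands for the nuclear receptor core motif AGGTCA, which RXR and its partners recognise, and for the AP-1 motif TGANTCA. Among all 32851 windows, 16.3% held the first and 7.81% the second. Of the 27 member windows 1 held the first (Itgb2l) and 3 the second (Itgax, Itga9 and Itga3), and the letters printed above hold neither, hence the absence of capitals. A match is a description of these letters and not a binding site.

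MSU-42011 and bexarotene were compared directly at the same dose in the diet and the same time. This was the only pair of compounds, and no member differed after adjustment over all genes. Of 36 members 16 were higher and 20 lower with MSU-42011 than with bexarotene, with a median of −0.052 (all genes, −0.024). Itga11 and Itgam were lower with MSU-42011 at an unadjusted p under 0.05 in edgeR (3.13% of all genes were lower and 0.819% higher at this p). DESeq2, which covered all 38 members, held 4 at this p, all lower (2.44% of all genes were lower and 0.659% higher). Of these 4, 1 was a laminin gamma chain. Lamc3, a gamma chain with 1 to 14 reads per tumor, was tested in DESeq2 but not in edgeR. No member separated the groups (0.632% of all genes did so as higher and 0.535% as lower). Without bexarotene replicate 1, 28 of 36 members were higher with MSU-42011 (median 0.25, all genes −0.0001), so that the balance between the compounds turned with that tumor. With all tumors, the 95% interval of the difference lay within 1 log2 unit of 0 for 15 of 36 members.

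Itgam, the alpha subunit of the complement receptor of macrophages and neutrophils, was at 7.65, 5.30, 2.94 and 5.82 in the control tumors, 3.96, 2.73, 3.90 and 2.05 with MSU-42011 and 25.1, 5.91, 3.34 and 1.59 with bexarotene. The difference between compounds was −1.51 on the log2 scale (95% interval −2.99 to −0.032, edgeR adjusted p = 0.997) and −0.20 without bexarotene replicate 1. The 9 macrophage markers summed to 204 to 711 CPM in control tumors, 234 to 600 with MSU-42011, 1652 in bexarotene replicate 1 and at most 407 in the other bexarotene tumors, and their part in the result was not tested. Since 68.7% of the exon bases of Itgam are shared with the gene Gm49368 on the same strand, its count is uncertain.

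The difference between compounds in Itga11 was −3.75 (95% interval −6.54 to −0.96, edgeR adjusted p = 0.997) and −1.14 without that tumor. In Lama2 it was −1.63 (95% interval −3.47 to 0.20, edgeR adjusted p = 0.997) and turned to 0.34 without it. Itgae was 0.95 higher on the log2 scale with MSU-42011 (95% interval −0.14 to 2.04, edgeR adjusted p = 0.997). It was 1.76 higher without bexarotene replicate 1 (edgeR adjusted p = 0.939 in that fit), on 11 to 97 reads per tumor. There the 4 MSU-42011 tumors lay above the other 3 bexarotene tumors, and the share of all genes that separate in this smaller set is not given here. Lamb2 differed by −0.17 (95% interval −0.35 to 0.024, edgeR adjusted p = 0.997), with the narrowest interval of the 5.

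**Figure D4:**
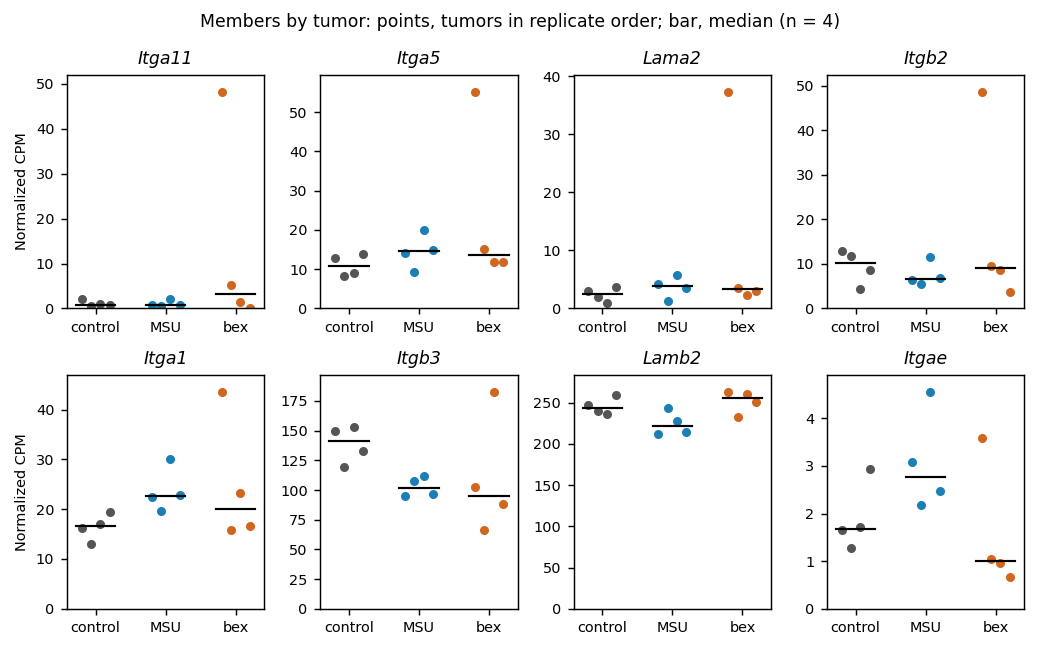
Normalized CPM of 8 members in every tumor (points, tumors in replicate order; bars, group medians; MSU, MSU-42011; bex, bexarotene), on linear axes from 0. In the upper row the first bexarotene point stands alone, at 48.2 CPM for Itga11 and 48.6 CPM for Itgb2, and in the lower row the control and MSU-42011 points of Itga1 and of Itgb3 do not overlap.

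Itgb4 and Itga3, subunits of the epithelial laminin receptors, were among the members that varied least. Itga6, whose product joins Itgb4 in hemidesmosomes or Itgb1 elsewhere, was at 229, 325, 204 and 275 in the control tumors, 223, 215, 240.2 and 205 with MSU-42011 and 198, 159, 295 and 176 with bexarotene. Control and MSU-42011 tumors overlapped, 3 of 4 bexarotene tumors were below the control range, and the log2 fold changes were −0.22 and −0.32 (95% intervals −0.64 to 0.19 and −0.74 to 0.099). Itgb4 was at 199, 273, 235 and 197 in the control tumors, 223, 219, 199.6 and 206 with MSU-42011 and 176, 233, 268 and 264 with bexarotene, with log2 fold changes of −0.093 and 0.058 (95% intervals −0.41 to 0.22 and −0.26 to 0.37). Opposite-strand exons of B230344G16Rik cover 7.66% of its exon bases, and the strand setting of the counting was not given in the sources used here. Itga3, the alpha subunit of another epithelial laminin receptor, had log2 fold changes of −0.076 and −0.18, and Itga7, the laminin receptor subunit of muscle, 0.048 and 0.50 (−0.38 without bexarotene replicate 1).

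Itgb1 was at 614, 572, 403 and 586 in the control tumors, 557, 396, 764 and 500.1 with MSU-42011 and 578, 351, 584 and 434 with bexarotene. Its groups overlapped, and the log2 fold changes were 0.027 with MSU-42011 and −0.16 with bexarotene (95% intervals −0.46 to 0.51 and −0.64 to 0.33). Itgav, the alpha subunit of the vitronectin receptors, was at 96.2, 85.1, 75.5 and 109.8 in the control tumors, 103, 79.5, 132 and 109 with MSU-42011 and 115, 74.0, 94.1 and 92.0 with bexarotene. Its log2 fold changes were 0.21 and 0.032, and both intervals lay within 1 unit of 0. Among the beta partners of alpha-v, Itgb5 had log2 fold changes of 0.062 and 0.066, and Itgb8, which with alpha-v releases active TGF-beta, of 0.003 and −0.54. Itgb6, the epithelial beta subunit that also activates TGF-beta with alpha-v, stood at 14.3, 22.8, 13.0 and 16.4 in the control tumors, 14.6, 14.3, 21.7 and 15.9 with MSU-42011 and 11.5, 9.44, 20.9 and 11.8 with bexarotene, with log2 fold changes of −0.002 and −0.31. Itga8 was at 107 to 242 CPM in control tumors, 68.2 to 234 with MSU-42011 and 104 to 149.6 with bexarotene. Against control the bexarotene group differed by −0.64 on the log2 scale (95% interval −1.38 to 0.097, edgeR adjusted p = 0.821), and 372 of its exon bases face the opposite-strand gene E030013I19Rik, to which 17476 reads were assigned in all tumors against 40130 for Itga8.

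Among the 7 tested leukocyte subunits, 4 were higher and 3 lower with MSU-42011, and 3 were higher and 4 lower with bexarotene. Without bexarotene replicate 1, all 7 were lower than in control tumors, with fitted log2 fold changes of −1.32 to −0.35. In the same fit 9 of 9 macrophage markers (median −0.26) and 6 of 7 tested T cell markers (median −0.42) were also lower, and their part in the result was not tested. Itgb2, the common beta subunit of the leukocyte integrins, was at 12.9, 11.7, 4.44 and 8.70 in the control tumors, 6.38, 5.51, 11.6 and 6.92 with MSU-42011 and 48.6, 9.63, 8.72 and 3.62 with bexarotene. Apart from bexarotene replicate 1 the groups lay in a common range, and the log2 fold changes were −0.31 and 0.90 (−0.36 without that tumor). Itgax, the alpha subunit of dendritic cells and macrophages, had log2 fold changes of −0.44 and −0.67 (−1.32 without that tumor).

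The laminin chains were divided in direction, with 5 of 10 tested chains higher with MSU-42011 and 6 of 10 with bexarotene, and none passed the test. Lama3 and Lamb3, chains that assemble in the laminin of hemidesmosomes, stood at very different levels. Lama3 was at 1.78, 2.46, 1.87 and 0.905 in the control tumors, 1.04, 1.94, 3.09 and 2.26 with MSU-42011 and 7.56, 3.20, 1.26 and 2.21 with bexarotene, on 19 to 205 reads per tumor. Lamb3 was at 196, 219.7, 81.4 and 198 in the control tumors, 198, 63.1, 354 and 208 with MSU-42011 and 74.9, 85.8, 277 and 162 with bexarotene. Lamb3 was lowest in MSU-42011 replicate 2 and highest in MSU-42011 replicate 3, and Lama3 was highest in bexarotene replicate 1. The log2 fold changes with MSU-42011 and with bexarotene were 0.25 and 1.03 for Lama3 (0.34 without bexarotene replicate 1), and 0.24 and −0.21 for Lamb3. Per length, the FPKM of Lamb3 exceeded that of Lama3 in all 12 tumors, by a factor of 43.4 in bexarotene replicate 1 to 962, with a median of 397, and by 16.1 to 357 (median 147) when the listed gene lengths were used.

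Lama5, the alpha chain of mature epithelial basement membranes, was at 178, 224, 222 and 278 in the control tumors, 233, 165, 193 and 229 with MSU-42011 and 153, 280.3, 234 and 193 with bexarotene. The groups overlapped, and the log2 fold changes were −0.14 and −0.067 (95% intervals −0.56 to 0.28 and −0.49 to 0.35). Lamc1, the gamma chain of most laminins, was at 97.0, 73.5, 82.4 and 103 in the control tumors, 88.1, 67.0, 108 and 87.5 with MSU-42011 and 215, 66.2, 92.1 and 76.1 with bexarotene. Bexarotene replicate 1 was again far above the rest, and the log2 fold changes were −0.024 and 0.34 (−0.19 without that tumor). Lamb1, its usual beta partner in mesenchymal laminins, had log2 fold changes of 0.15 and 0.45 (−0.39 without that tumor), and Lama1, the alpha chain of embryonic basement membranes, of −0.33 and −0.45.

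Chains that assemble together were compared across the 12 tumors, in 19 known subunit pairs, with Pearson's r on log2(normalized CPM + 0.5), Spearman's rho and permutation p-values adjusted over the 19 pairs by the Benjamini-Hochberg method. By adjusted p, 6 pairs were correlated, of which 5 are described here. The share of other gene pairs that correlate in these tumors is not given here, so this count is not a result about partner chains. Cell content also differed between these tumors, and its part in the correlations was not tested. Lamb1 with Lamc1 had r = 0.93 (permutation p = 5e-05, adjusted p = 0.000475; rho = 0.92, permutation p = 9e-05, adjusted p = 0.00171). With the 2 tumors farthest from the median left out, r was 0.89, and without bexarotene replicate 1 it was 0.88.

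The leukocyte subunits Itgam and Itgb2 had r = 0.93 (permutation p = 0.00018, adjusted p = 0.00114; rho = 0.82, permutation p = 0.00185, adjusted p = 0.0117), which was 0.71 without the 2 farthest tumors. For Itgax and Itgb2 r was 0.72 (permutation p = 0.00645, adjusted p = 0.0245; rho = 0.78, permutation p = 0.00437, adjusted p = 0.0208), and 0.71 without the 2 farthest tumors. It lost its call without control replicate 3 (r = 0.68) or bexarotene replicate 4 (r = 0.65). Itga4 and Itgb7, the subunits of a gut-homing lymphocyte receptor, had r = 0.89 (permutation p = 0.00146, adjusted p = 0.00693; rho = 0.75, permutation p = 0.00672, adjusted p = 0.0255), which dropped to 0.52 without the 2 farthest tumors and 0.62 without bexarotene replicate 1, and so rests on those tumors. Lama4 and Lamb1 had r = 0.68 (permutation p = 0.0140, adjusted p = 0.0444; rho = 0.72, permutation p = 0.00971, adjusted p = 0.0307), and 0.50 without the 2 farthest tumors, on which it rests. It lost its call in 9 of the 12 sets that leave out 1 tumor, with the lowest r, 0.60, without control replicate 2.

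Neither Itga6 with Itgb4 nor Lama3 with Lamb3, partners in hemidesmosomes, passed this test. Itga6 and Itgb4 had r = 0.21 (permutation p = 0.518, adjusted p = 0.579; rho = 0.10, permutation p = 0.7498, adjusted p = 0.791). Lama3 had r = −0.39 with Lamb3 (permutation p = 0.214, adjusted p = 0.343; rho = −0.15, permutation p = 0.649, adjusted p = 0.725). Itgav, whose product has several beta partners, had r = 0.071 with Itgb3, 0.37 with Itgb5, 0.38 with Itgb6 and 0.61 with Itgb8, of which the last had a permutation p of 0.0367 and an adjusted p of 0.0997 (rho = 0.49, permutation p = 0.109, adjusted p = 0.207).

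**Figure D5:**
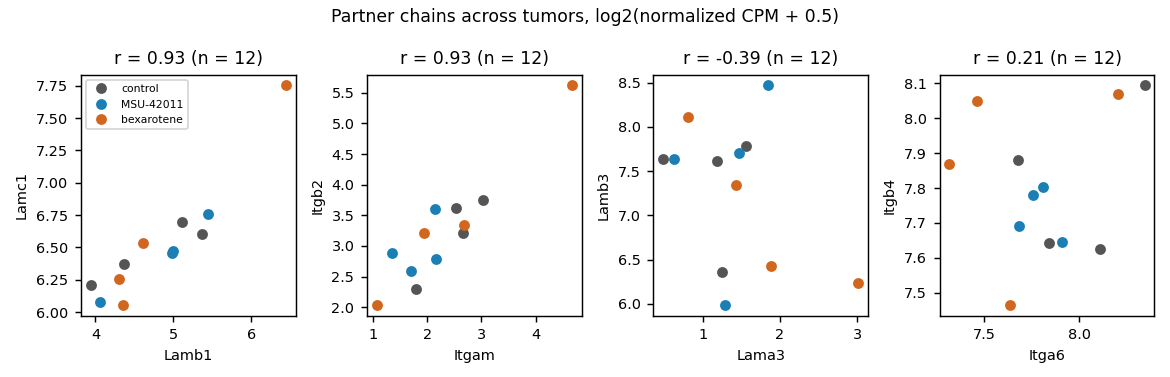
Partner chains across the 12 tumors, as log2 of normalized CPM plus 0.5 on both axes; each point is a tumor, coloured by group. Lamb1 with Lamc1 and Itgam with Itgb2 rise together (r = 0.93 and 0.93, and 0.88 and 0.81 without bexarotene replicate 1, the tumor at the top right of both plots), and Lama3 with Lamb3 and Itga6 with Itgb4 do not (r = −0.39 and 0.21).

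The genes around these receptors were taken from 3 lists. Of 31 integrin adaptors and focal adhesion kinases, 0 passed edgeR's adjusted test in any comparison. At an unadjusted p under 0.05 the list held 0 genes with MSU-42011, where 1.14% of all genes tested were higher and 0.851% lower. With bexarotene this p was met by 2 genes with a raised level (4.48% of all genes) and 1 with a reduced level (1.96%). Between the compounds the list again held 0 (0.819% of all genes were higher and 3.13% lower with MSU-42011). Leaving out bexarotene replicate 1 brought the list to 0 genes with bexarotene as well (1.6% of all genes raised and 1.75% reduced), and the other 0 counts stayed. Src, a kinase recruited to focal adhesions, was at 130.4, 152, 151 and 147 in the control tumors, 129.8, 119.5, 131 and 123 with MSU-42011 and 101, 118, 138 and 122 with bexarotene, with log2 fold changes of −0.21 and −0.28 (edgeR adjusted p = 0.9999 and 0.762). Of the MSU-42011 tumors 3 of 4, and of the bexarotene tumors 3 of 4, lay below the lowest control tumor. Tns1, the adaptor tensin, had a log2 fold change of 1.68 with bexarotene and 0.31 without replicate 1.

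Of 15 tested basement membrane partners and other laminin receptors, 0 passed the adjusted test. At an unadjusted p under 0.05, 0 were held with MSU-42011 (1.14% of all genes were higher and 0.851% lower). With bexarotene 2 were higher (4.48% of all genes), and 1 was lower with MSU-42011 than with bexarotene (3.13% of all genes). Without bexarotene replicate 1 these counts were all 0. The 2 higher with bexarotene were Nid1, the nidogen that links laminin to collagen IV, and Hspg2, the proteoglycan perlecan. Their log2 fold changes with bexarotene were 2.14 and 1.29 (edgeR adjusted p = 0.762 and 0.773), and 0.15 and 0.026 without replicate 1. With MSU-42011 the smallest p-values were those of Dst and Plec, which anchor keratin filaments to hemidesmosomes, with log2 fold changes of 0.37 and 0.16 (edgeR adjusted p = 0.9999 for both).

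Of 15 tested other ligands of integrins, 0 passed the adjusted test. At an unadjusted p under 0.05, 1 was lower with MSU-42011 (0.851% of all genes). With bexarotene 4 were higher and 1 lower (4.48% and 1.96% of all genes). Between the compounds 4 were lower with MSU-42011 (3.13% of all genes). Without bexarotene replicate 1, 0 were higher and 1 lower with bexarotene (1.6% and 1.75% of all genes). In that fit 2 were lower with MSU-42011 than in control tumors (171 of 15619 genes) and 1 lower than with bexarotene (230 of 15619 genes). Spp1, osteopontin, a ligand of alpha-v receptors, was at 165, 391, 9.67 and 16.6 in the control tumors, 4.45, 8.18, 44.6 and 9.22 with MSU-42011 and 142, 58.2, 13.9 and 4.90 with bexarotene. Control replicates 1 and 2 were high and the other 2 control tumors lay within the range of the treated groups, and the log2 fold change with MSU-42011 was −3.13 (edgeR adjusted p = 0.9999). Fn1, fibronectin, was at 47.9, 7.10, 19.5 and 22.6 in the control tumors, 14.1, 23.8, 18.1 and 22.7 with MSU-42011 and 1518, 156, 25.2 and 9.63 with bexarotene. Bexarotene replicates 1 and 2 were above every control and MSU-42011 tumor, and the log2 fold change with bexarotene was 4.14 (edgeR adjusted p = 0.762), or 1.40 without replicate 1. Vtn, vitronectin, differed between MSU-42011 and bexarotene by −1.23 on the log2 scale (edgeR adjusted p = 0.997), and by −0.80 without bexarotene replicate 1.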

How the data were processed

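RNA from 12 frozen tumors, enriched for poly(A) from 1 ug of total RNA, was sequenced by Novogene. The authors deposited raw read counts per gene, not normalized, and FPKM, which they normalized for library total and gene length. Per the submitters' processing notes, STAR 2.6.1d, featureCounts 1.5.0-p3 and DESeq2 were named; the genome build and strand setting are not given in the sources used here, and the coordinates of all 38 members equal those of GENCODE M21 (GRCm38). Columns of the authors' own comparisons were not used. Tumors were grouped by their labels, and none was left out.

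Counts were normalized by TMM, filtered with filterByExpr (minimum count 10) and tested with edgeR 4.0.16 (R 4.3.3), using the quasi-likelihood F test in 1 model of all 12 tumors with a mean per group. P-values were adjusted by Benjamini-Hochberg over 15504 genes at 0.05. Intervals are 95% intervals from the fit. Log2 values for correlations used a pseudocount of 0.5 and 100000 permutations; single values were compared by exact two-sided permutation of 4 against 4 tumors (70 splits, smallest p 0.0286). Totals of 16583413 to 25925027 counts limit precision. Tests were checked on simulated counts. Alternatives were DESeq2 1.42.0, DESeq2 size factors, no filter, a replicate block, 2 groups fitted alone, deposited FPKM, another pseudocount and each tumor left out. Numbers shared by tumors of different groups were not treated as pairs in the main fit. Correlations of their deviations ran from −0.35 to 0.35. Tumors of different numbers were not compared, so this range cannot show whether any numbers pair them. Named were the 5 members with the smallest p in each comparison and a fixed set for each role, and from each list of surrounding genes the 2 with the smallest p. The members and lists were chosen with earlier results of these data known. The sequences are RefSeq promoter windows on GRCm38.p6. The results of 1 member, counted in the totals, are not reported here.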

Additional observations from a re-analysis of the deposited data

Results flagged for a closer look

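In groups of 4 tumors, the gap of the highest or lowest tumor to the next was compared with the group's range by Dixon's 95% limit. Of 108 member and group combinations 10 exceeded it. Chance gives about 5% for normally distributed values, which is only nominal for the normalized CPM used here without a logarithm. Bexarotene replicate 1 was high in 9 of them, and all 9 values come from that 1 tumor. It was the highest of the 12 tumors for 19.1% of all genes tested. The share of all genes beyond the limit is not given here, so these flags are not particular to the members. It held 48.2 normalized CPM of Itga11 (other bexarotene tumors at most 5.20), 11.6 of Itga7 (2.37 to 3.07), 55.1 of Itga5 (11.8 to 15.1) and 8.97 of Itga4 (1.11 to 1.78). It also held 31.0 of Itga9 (at most 8.63), 3.58 of Itgae (0.674 to 1.05), 48.6 of Itgb2 (3.62 to 9.63), 37.3 of Lama2 (2.32 to 3.48) and 86.6 of Lamb1 (19.3 to 23.9). MSU-42011 replicate 3 held 2.55 of Itga4, against 1.47 to 1.58 in the other MSU-42011 tumors.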

How the results depend on the processing

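The count of members called stayed at 0 in each comparison and among the 3 groups under each alternative run. Counts at an unadjusted p under 0.05 moved more. For most of these alternatives the share of all genes is not given here, so the counts are not a result about the members. For MSU-42011 against control the count of 0 became 3 with the 2 groups fitted alone, and ran from 0 to 1 with 1 tumor left out. For bexarotene against control the count of 3 became 5 without a filter on low counts, and ran from 2 to 9 with 1 tumor left out, the highest without bexarotene replicate 3. For MSU-42011 against bexarotene the count of 2 became 4 without a filter, 4 in DESeq2 and 1 with the 2 groups alone, and ran from 1 to 4 with 1 tumor left out. With the replicate number as a replicate block these counts were 1, 0 and 0. The block changed no other call, and whether the numbers pair the tumors is not known.

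The count of members without overlap was 1 with deposited FPKM in place of 2 for MSU-42011 against control. With 1 tumor left out it ran from 2 to 5 in that comparison (5 without MSU-42011 replicate 2). It then ran from 0 to 4 for bexarotene against control (4 without bexarotene replicate 3), and from 0 to 2 for MSU-42011 against bexarotene. A smaller group separates more easily for any gene. The shares of all genes in these sets are not given here, so the counts are not a result about the members. The median log2 fold change of the members ran from −0.15 (without MSU-42011 replicate 3) to 0.13 (without MSU-42011 replicate 2) for MSU-42011 against control, from −0.28 to 0.067 for bexarotene against control and from −0.10 to 0.25 for MSU-42011 against bexarotene, the value farthest from that with all tumors being the one without bexarotene replicate 1 in both of the latter. Lama2 between the compounds ran from −1.97 to 0.34, and was reversed without bexarotene replicate 1 (0.34). Between 4 and 7 subunit pairs were correlated with 1 tumor left out; Lama4 with Lamb1 (r from 0.60 to 0.83) lost its call in 9 of these fits, Itgax with Itgb2 (0.65 to 0.84) without control replicate 3 or bexarotene replicate 4, and Itga4 with Itgb7 (0.62 to 0.95) without bexarotene replicate 1. Members on few reads, such as Itgb7 (4 to 97 per tumor) and Itgae, are limited by depth. The causes of these changes were not tested.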
